A study of Bos taurus with 15 samples.

Results

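Transcripts of centromere and kinetochore proteins were followed in bovine (Bos taurus) oocytes that were left fresh or vitrified. The genes were chosen by symbol: every CENP gene, the NDC80, MIS12 and MIS18 families, the SKA complex, the corona proteins ZW10, ZWILCH, KNTC1 and SPDL1, and the centromeric histone loaders HJURP and OIP5. The rule matched 37 of the 24616 genes in the table. Of these, 35 had a count above 0 and 34 passed the filter on low counts and were tested. The symbols CENPA, KNL1 (also CASC5) and ZWINT were searched for as well and matched no gene name of the table.

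The kinetochore is the protein body that fastens a chromosome to spindle microtubules. Its foundation is the centromeric histone CENP-A, which a loading machinery deposits. On it sits the constitutive centromere-associated network (CCAN), and on that the outer KNL1-MIS12-NDC80 network (KMN), whose NDC80 complex grips the microtubule and is helped by the SKA complex. A fibrous outer layer, the corona, carries motor proteins and checkpoint factors. Oocytes use this machinery in both meiotic divisions, and the fully grown oocyte, which transcribes little, draws on transcripts stored during growth.

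The 15 libraries formed 5 groups of 3. Fresh oocytes were the controls. The vitrified oocytes, cooled so fast in a concentrated cryoprotective agent that water becomes glass, had been cooled in liquid helium or in liquid nitrogen, each with 5.6 or 6.6 M of the agent. All groups share in vitro maturation for 22 to 24 h at 38.5 °C and removal of the cumulus cells with hyaluronidase, per the labels, whereas the series title calls the oocytes immature. The helium 5.6 M libraries carry the replicate numbers 3, 4 and 5 in the labels. RNA came from single cells per the labels, but whether a library held 1 oocyte or several is not given in the sources used here. The labels do not tie replicates to separate animals or cultures. The p-values therefore cover the spread among these libraries and nothing beyond it, and that spread may be technical. Libraries are scaled to a common total, so fewer cells and less RNA per cell cannot be told apart.

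Library totals ranged from 1601519 to 8569618 counts. The 7 libraries over 5000000 counts were the 6 helium libraries and nitrogen 6.6 M replicate 3, so depth and coolant largely go together. All fresh libraries were below that bound, so helium against fresh also sets deeper against shallower libraries, and the 2 cannot be told apart. Oocyte markers summed to 24113 to 38453 CPM (the usual depth-scaled count, here relative to the plain library total) in every library, with 15 of 17 listed genes in the table and none of these at 0. Of 21 cumulus and granulosa cell markers 19 were in the table, FOXL2 and FSHR were at 0, and the sums were 310 to 463 CPM in fresh, 333 to 375 in helium 5.6 M, 321 to 590 in helium 6.6 M, 343 to 354 in nitrogen 5.6 M and 328 to 330 in nitrogen 6.6 M libraries. The highest sums were those of helium 6.6 M replicate 2 (590 CPM) and fresh replicate 2 (463 CPM). Blood and immune markers (8 of 10 in the table, with CD14, CD74, HBB and TYROBP at 0) summed to at most 0.934 CPM. Shared division markers (6 of 6) summed to 3956 to 5262 CPM.

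Kinetochore transcripts were abundant in these oocytes and very uneven between genes of the same complex. Levels between genes are given in FPKM, the count per kilobase of gene length scaled to a common library total, averaged over the 15 libraries. Of the 37 genes, 10 averaged at least 100 FPKM, 19 lay between 10 and 100, 6 lay above 0 and under 10, and 2 were at 0. Over all genes, 1081 reached 100 FPKM. SKA1, a subunit of the complex that keeps kinetochores on the ends of microtubules, averaged 2459 FPKM and ranked 32 of the 16294 genes with any count. CENPV, a protein of centromeric heterochromatin and the central spindle, averaged 1168 FPKM (rank 81), and CENPU, a CCAN subunit that docks the kinase PLK1, averaged 752 FPKM (rank 145). They were followed by SPC25 of the NDC80 complex at 479 FPKM (rank 252) and the histone-fold CCAN protein CENPW at 439 FPKM (rank 269). The plot of levels by library shows these genes in each of the 15 libraries.

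**Figure D1:**
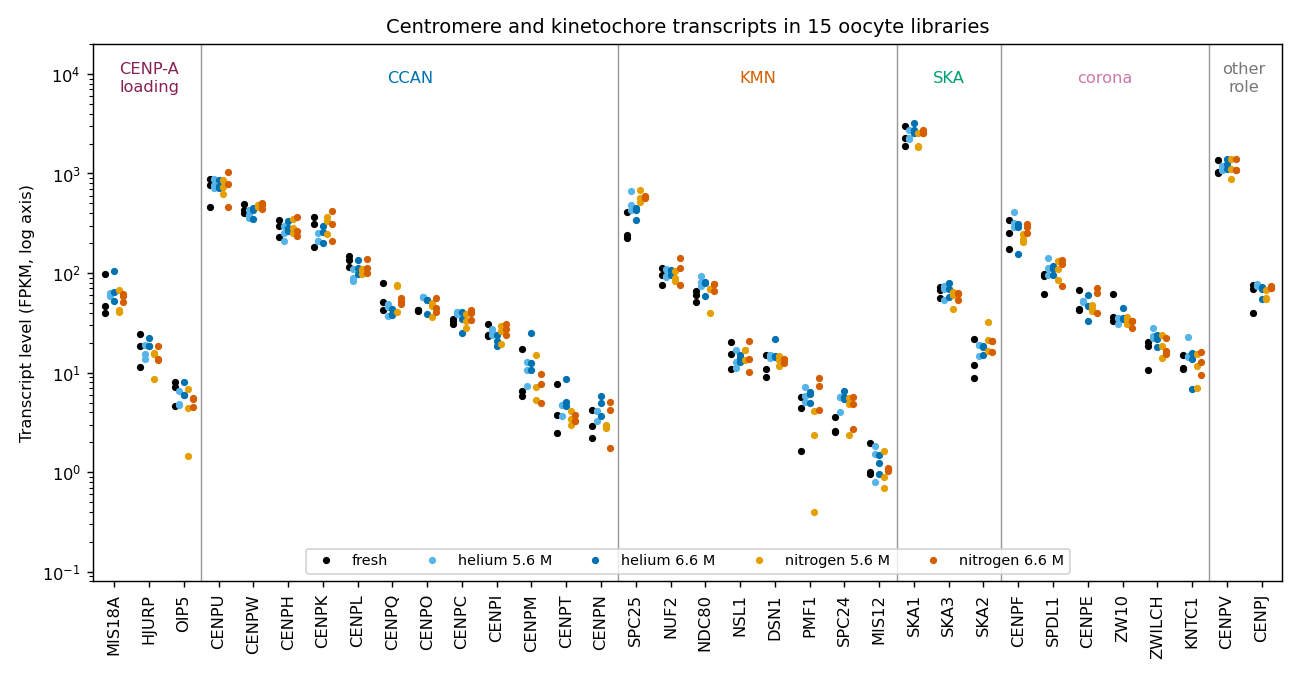
Level of 34 genes with a count above 0 (FPKM, log axis) in every library, grouped by role and ordered by mean level within a role; points are single libraries coloured by group, 3 libraries a group. SKA1, CENPV, CENPU, SPC25 and CENPW stand at the top of their roles or of the whole set, and libraries of different groups lie among each other for most genes.

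The machinery that loads CENP-A was found at modest levels. MIS18A, a scaffold of the Mis18 complex that marks centromeres for loading, averaged 60.8 FPKM, the CENP-A chaperone HJURP 16.4 FPKM and OIP5, the second Mis18 scaffold, 5.61 FPKM. CENPB, which binds a sequence motif in centromeric repeats, had 0 counts in all 15 libraries. With 68098630 counts in all, 3 counts over the 15 libraries, the limit that a count of 0 allows, correspond to 0.0441 CPM. CENPBD1, named for a CENP-B DNA-binding domain, was likewise at 0 in every library. A gene without a symbol (ENSBTAG00000023938, chromosome 11, 72781247 to 72787461 on the build UMD3.1), which the table describes as a CENP-A histone, lies outside the rule. It averaged 40.2 FPKM, from 25.5 in helium 5.6 M replicate 5 to 62.8 in fresh replicate 2. A second gene with that description (ENSBTAG00000035013, chromosome 27, 3150950 to 3151920) held 0 to 9 counts and was not tested.

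In the CCAN, which joins CENP-A chromatin to the outer kinetochore, levels ran from 3.67 to 752 FPKM over 12 genes. CENPU averaged 752 FPKM, against 51.6 for CENPQ and 47.9 for CENPO, its partners in 1 subcomplex. The CENPU to CENPQ ratio was 8.94 to 22.1 over the 15 libraries, with a median of 16.3. CENPW averaged 439 FPKM and CENPT, the histone-fold protein it dimerises with and a direct receptor for NDC80 complexes, 4.39 FPKM. Their ratio ranged from 52.2 to 202 (median 115). CENPH and CENPK, which form a pair in the CENP-H/I/K/M subcomplex, stood level at 283 and 279 FPKM, with a ratio of 0.691 to 1.40 and CENPH above CENPK in 7 of 15 libraries. The other subunits of that subcomplex were lower, CENPI at 25.1 and CENPM at 10.6 FPKM. CENPL averaged 113 FPKM and its partner CENPN, which reads the CENP-A nucleosome directly, 3.67 FPKM. CENPC, the pillar that links CENP-A to the MIS12 complex, averaged 35.7 FPKM.

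The KMN network showed the same kind of imbalance. In the NDC80 complex NDC80 and NUF2 form the microtubule-binding end, and SPC24 and SPC25 form the end anchored in the kinetochore. NDC80 averaged 69.7 FPKM and NUF2 99.4 FPKM, with a NUF2 to NDC80 ratio of 0.958 to 2.25 (above 1 in 14 of 15 libraries). SPC25 averaged 479 FPKM and its dimer partner SPC24 4.51 FPKM, and their ratio ranged from 52.5 to 218 (median 106). SPC25 also exceeded NUF2 by 2.01 to 7.5 times and NDC80 by 4.01 to 13 times, in every library. SPC24 stood at 2.51 to 3.54 FPKM in fresh libraries and at 2.38 to 6.57 in vitrified ones. The lengths behind these values are 705 bases for SPC24 and 1022 for SPC25, and a gene model that lacks part of a transcript would alter a level, which was not tested. The MIS12 complex, which couples the NDC80 complex to the CCAN, was low in all subunits, with NSL1 at 14.7, DSN1 at 13.9, PMF1 at 4.95 and MIS12 at 1.21 FPKM. MIS12 held 3 to 29 counts a library and did not pass the filter on low counts.

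SKA1 exceeded its complex partners in all 15 libraries, SKA3 by 28.1 to 58.5 times and SKA2 by 57.3 to 259 times. SKA3 averaged 63.1 FPKM and SKA2 18.2 FPKM. In the corona CENPF, a very large microtubule-binding protein, averaged 272 FPKM, SPDL1, the adaptor that links dynein to the kinetochore, 106 FPKM, and the kinesin motor CENPE 50.3 FPKM. The complex that recruits SPDL1 was lower, with ZW10 at 36.2, ZWILCH at 19.8 and KNTC1 at 13.2 FPKM. CENPJ, which despite its name is a centriole protein, averaged 66.7 FPKM. SKA1, CENPF and CENPV together held 53.4% of the counts of the 37 genes.

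The first comparison took all 12 vitrified libraries together against the 3 fresh libraries, whatever the coolant or concentration. None of the 34 tested genes passed edgeR (quasi-likelihood test, p-values adjusted by Benjamini-Hochberg over all 8441 genes tested, threshold 0.05), where 0.509% of all genes passed. By edgeR 3 of 34 genes (8.82%) had an unadjusted p under 0.05, against 13.6% of all genes. DESeq2 called 1 of the 34 genes, SPC25, and 191 genes over the whole table. Log2 fold changes ran from -0.35 to 0.79 with a median of 0.04, beside -0.03 over all genes, and 18 lay above 0 and 16 below. Of all genes tested, 46.5% lay above 0. Of the 34 genes, 30 had a 95% interval within 1 log2 unit of 0, as did 73.0% of all genes tested, and 9 had one within 0.5; the plot of fold changes shows the intervals. A change by a factor beyond 2 in either direction therefore lay outside the interval for those 30 genes. The groups did not separate completely for any of the 34 genes (all genes: 1.32% higher and 0.711% lower).

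**Figure D2:**
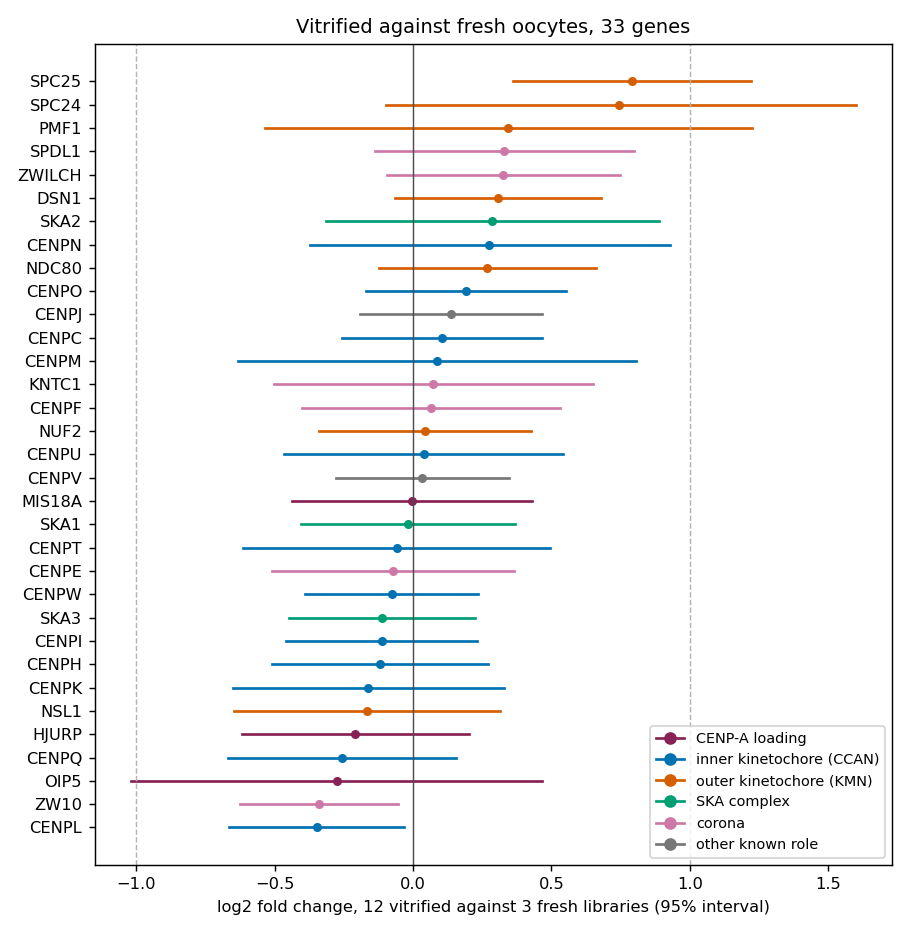
Log2 fold change of 33 tested genes, 12 vitrified against 3 fresh libraries, with its 95% interval from the edgeR fit, coloured by role; dashed lines mark 1 log2 unit. SPC25 has the highest value, 0.79, with an interval from 0.36 to 1.22, and the intervals of most other genes cross 0.

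SPC25 (ENSBTAG00000010048, chromosome 2, 27296841 to 27309226 on UMD3.1) had the lowest p. Per library, in CPM after TMM scaling (trimmed mean of M-values), the scale of every CPM value of a gene below, it stood at 448, 201 and 273 in fresh replicates 1, 2 and 3. It stood at 634, 474 and 452 in helium 5.6 M replicates 3, 4 and 5, and at 432, 316 and 449 in helium 6.6 M replicates 1, 2 and 3. In nitrogen libraries it stood at 569, 755 and 549 with 5.6 M and at 587, 640 and 612 with 6.6 M. All vitrified libraries except helium 6.6 M replicates 1 and 2 lay above every fresh one, and fresh replicate 1 stood apart from its group on the high side. The means were 307 ± 127 (SD, n = 3) in fresh and 539 ± 119 (n = 12) in vitrified oocytes. The log2 fold change was 0.79 (SE 0.21, edgeR adjusted p = 0.0904), a fold of 1.73. It passed with DESeq2 (0.78, adjusted p = 0.0167), with library totals in place of TMM by edgeR (0.84, adjusted p = 0.0439), without the filter on low counts by edgeR (0.81, adjusted p = 0.00636) and without fresh replicate 1 by edgeR (1.20, adjusted p = 0.0486). Without fresh replicate 2 it was 0.55 (edgeR adjusted p = 0.143) and without helium 6.6 M replicate 2, 0.83 (edgeR adjusted p = 0.0819). It did not pass edgeR with RLE size factors in place of TMM or with a term for depth class. Among the 8 libraries of lower depth, the 5 of nitrogen held 549 to 755 CPM and the 3 fresh ones 201 to 448. How many of all genes separate in this split was not counted.

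**Figure D3:**
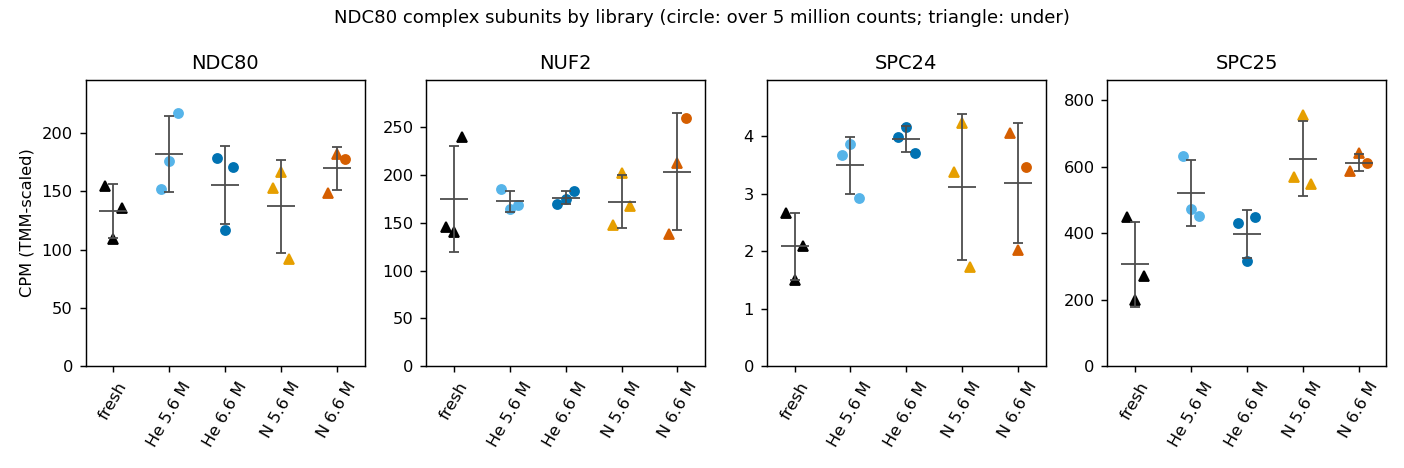
NDC80 complex subunits in CPM (TMM-scaled) per library, with circles for libraries over 5000000 counts and triangles for the others, and mean ± SD of each group of 3 as bars; each panel has its own axis from 0. SPC25 is higher in the nitrogen groups (549 to 755) than in fresh libraries (201 to 448), while NDC80 and NUF2 overlap between all groups.

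None of the other NDC80 subunits passed the test, and all of them overlapped between fresh and vitrified libraries. NUF2 stood at 145, 140 and 239 CPM in fresh replicates 1, 2 and 3 and at 138 to 259 in the 12 vitrified libraries, which overlap. Its log2 fold change was 0.04 (SE 0.18, edgeR adjusted p = 0.952). NDC80 averaged 133 ± 23.0 CPM (SD, n = 3) in fresh and 161 ± 32.4 (n = 12) in vitrified oocytes. SPC24 stood at 2.66, 1.5 and 2.10 CPM in fresh and at 1.73 to 4.24 CPM in vitrified libraries, on 3 to 34 counts a library. Its log2 fold change of 0.74 was close to that of SPC25 but had an SE of 0.41 (edgeR adjusted p = 0.444). Of the MIS12 complex, PMF1 stood at 6.65, 4.0 and 2.10 CPM in fresh and at 0.471 to 9.62 CPM in vitrified libraries, an overlap over the whole fresh range (0.34, SE 0.42, edgeR adjusted p = 0.794). DSN1 averaged 24.95 ± 3.80 CPM in fresh and 31.1 ± 4.19 in vitrified oocytes (0.31), and NSL1 33.5 ± 14.3 and 30.2 ± 6.48 (-0.17). Of the 7 tested KMN genes 6 had a log2 fold change above 0, as did 46.5% of all genes. Their median was 0.31, and none passed.

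CCAN genes lay on both sides of 0, 5 above and 7 below, with a median of -0.07. CENPL (ENSBTAG00000006925, chromosome 16, 56636319 to 56660494) stood at 237, 215 and 345 CPM in fresh libraries. In vitrified libraries it ranged from 167 to 281 CPM and averaged 210 ± 30.6 (n = 12), so that most lay below all fresh ones but the ranges overlapped. Its log2 fold change was the lowest of all 34 genes, -0.35 (SE 0.15, edgeR adjusted p = 0.312). CENPQ stood at 146, 72.1 and 85.6 CPM in fresh and at 61.3 to 140 in vitrified libraries, overlapping widely (-0.26, SE 0.20, edgeR adjusted p = 0.622). CENPU stood at 1040, 480 and 1316 CPM in fresh and at 590 to 1349 in vitrified libraries (0.04, SE 0.24, edgeR adjusted p = 0.969). Fresh replicate 2 was the lowest of all 15 libraries for CENPU. CENPW stood at 437, 310 and 559 CPM in fresh and at 327 to 495 in vitrified libraries, inside the fresh range (-0.08, SE 0.15, edgeR adjusted p = 0.886). The other 8 genes of the network had log2 fold changes from -0.16 (CENPK) to 0.28 (CENPN).

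All 4 tested genes of the CENP-A loading machinery had a log2 fold change below 0, from -0.28 to -0.0025, and none passed. Above 0 lay 46.5% of all genes tested. MIS18A stood at 47.9, 91.6 and 62.5 CPM in fresh and at 45.1 to 108 in vitrified libraries, without separation (-0.0025, SE 0.21). OIP5 stood at 6.65, 4.51 and 4.20 CPM in fresh and at 1.16 to 6.12 in vitrified libraries, on 2 to 43 counts (-0.28, SE 0.36, edgeR adjusted p = 0.809). HJURP averaged 36.2 ± 10.3 CPM in fresh and 32.0 ± 5.87 in vitrified oocytes (-0.21). The gene described as a CENP-A histone (ENSBTAG00000023938) averaged 80.8 ± 9.49 CPM in fresh and 62.5 ± 9.70 in vitrified oocytes, a log2 fold change of -0.37 (SE 0.16, edgeR adjusted p = 0.319).

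The abundant SKA1 was not distinguishable between fresh and vitrified oocytes. It stood at 2152, 2011 and 3858 CPM in fresh libraries and at 2013 to 3095 CPM in vitrified ones, where fresh replicate 3 was the highest of all 15 (-0.02, SE 0.19, 95% interval -0.41 to 0.37, edgeR adjusted p = 0.981). SKA3 stood at 139, 129 and 199 CPM in fresh and at 106 to 166 in vitrified libraries, again with fresh replicate 3 highest (-0.11, SE 0.16, edgeR adjusted p = 0.837). SKA2 averaged 15.9 ± 9.93 and 20.1 ± 5.55 CPM.

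In the corona ZW10 (ENSBTAG00000020066, chromosome 15, 24616731 to 24652072), a subunit of the complex that holds dynein and checkpoint proteins at kinetochores, stood at 97.1, 139 and 118 CPM in fresh libraries. It stood at 82.1 to 109 CPM in vitrified libraries, with 93.7 ± 7.83 on average, so only fresh replicate 1 lay within their range. Its log2 fold change was -0.34 (SE 0.14, edgeR adjusted p = 0.272). SPDL1 stood at 255, 126 and 271 CPM in fresh and at 184 to 350 in vitrified libraries (0.33, SE 0.22, edgeR adjusted p = 0.554). CENPF stood at 3419, 1949 and 1950 CPM in fresh and at 1300 to 3997 in vitrified libraries, the widest range in CPM of the 37 genes (0.06, SE 0.22, edgeR adjusted p = 0.943). ZWILCH, KNTC1 and CENPE had log2 fold changes of 0.33, 0.07 and -0.07. Of the genes with other roles, CENPV stood at 1137, 1164 and 1221 CPM in fresh and at 971 to 1504 in vitrified libraries, around them on both sides (0.03, SE 0.15, edgeR adjusted p = 0.954). CENPJ stood at 343, 239 and 199 CPM in fresh and at 210 to 325 in vitrified libraries (0.14, SE 0.16, edgeR adjusted p = 0.773).

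Each vitrified group was also compared with the same 3 fresh libraries, so these comparisons are not independent of each other. No tested gene of the set passed edgeR in any of the 4, where 0.474% of all genes passed with helium 5.6 M, 0.628% with helium 6.6 M, 0.0118% with nitrogen 5.6 M and 0.0474% with nitrogen 6.6 M. At an unadjusted p under 0.05 by edgeR the counts were 4, 4, 1 and 2 of 34, against 14.1%, 15.5%, 6.74% and 8.23% of all genes. DESeq2 called 0, 0, 1 and 1, each time SPC25, where it called 244, 279, 32 and 69 genes over the whole table. Replicate numbers met the rule for pairs with helium 6.6 M only, and there, with the number as a block in a fit of those 2 groups 17 genes passed over all and 0 of the set. The same fit without the block gave 2, and the fit of all 5 groups 53.

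SPC25 had log2 fold changes of 0.76 with helium 5.6 M, 0.38 with helium 6.6 M, 1.03 with nitrogen 5.6 M and 1.00 with nitrogen 6.6 M (edgeR adjusted p = 0.159, 0.498, 0.225 and 0.177). Without the filter on low counts it passed edgeR at helium 5.6 M (adjusted p = 0.0495), nitrogen 5.6 M (adjusted p = 0.00979) and nitrogen 6.6 M (adjusted p = 0.00934). It also passed edgeR at nitrogen 6.6 M without fresh replicate 1 (1.41, adjusted p = 0.0435). With helium 6.6 M it was 0.78 without fresh replicate 1 and 0.13 without fresh replicate 2. CENPL differed most from fresh with helium 5.6 M, at 201, 170 and 167 CPM in replicates 3, 4 and 5, all below the fresh libraries (-0.57, SE 0.19, edgeR adjusted p = 0.177). Without fresh replicate 2 it passed edgeR there (-0.71, adjusted p = 0.0463).

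Libraries of a vitrified group lay wholly above the fresh ones for 6 genes with helium 5.6 M (9.36% of all genes), 3 with helium 6.6 M (8.06%), 1 with nitrogen 5.6 M (5.24%) and 2 with nitrogen 6.6 M (5.27%). They lay wholly below for 2 (8.79%), 1 (8.25%), 0 (4.03%) and 1 (4.04%). SPC25 was among the higher genes in helium 5.6 M and both nitrogen groups, SPC24 in both helium groups, and DSN1 in all groups but nitrogen 5.6 M. SPC24 rested on 4, 3 and 5 counts in fresh libraries and on 18 to 34 in the deeper helium libraries. The lower genes were CENPL and ZW10 with helium 5.6 M, CENPQ with helium 6.6 M and ZW10 with nitrogen 6.6 M.

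Helium was compared with nitrogen over both concentrations, to ask whether the colder coolant left a different set of transcripts. No gene of the 34 passed edgeR (0.663% of all genes did), DESeq2 called 0, and 5 had an unadjusted p under 0.05 by edgeR, against 16% of all genes. These 5 were CENPQ, CENPW, CENPK and SPC25, lower with helium, and CENPT, higher. CENPQ, CENPW, CENPK and CENPT belong to the CCAN, whose 12 genes had 4 log2 differences above 0 and 8 below, where 53.4% of all genes lay above 0. The median of the 12 was -0.13, beside 0.03 over all genes.

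CENPW (ENSBTAG00000026704, chromosome 9, 25263764 to 25279586) was the 1 gene of the set whose helium and nitrogen libraries did not overlap (2.63% of all genes lay wholly lower with helium and 0.735% wholly higher). It stood at 375, 327 and 374 CPM with helium 5.6 M and at 328, 385 and 395 with helium 6.6 M. With nitrogen it stood at 457, 476 and 474 CPM at 5.6 M and at 465, 443 and 495 at 6.6 M. Fresh libraries, at 437, 310 and 559, spanned both. The log2 difference was -0.36 (SE 0.13, edgeR adjusted p = 0.202), a fold of 0.777.

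CENPQ, which binds microtubules and takes part in bringing CENPE to kinetochores, stood at 61.3 to 80.9 CPM in helium and at 72.3 to 140 in nitrogen libraries. The ranges overlap through nitrogen 5.6 M replicate 3 at 72.3 CPM (log2 difference -0.56, SE 0.18, edgeR adjusted p = 0.133). CENPK stood at 319 to 458 CPM in helium and 341 to 693 in nitrogen libraries (-0.51, SE 0.21, edgeR adjusted p = 0.252). SPC25 averaged 459 ± 102 and 618 ± 73.9 CPM (n = 6 each; -0.44, SE 0.17, edgeR adjusted p = 0.225). CENPT was low in all libraries, at 8.14 to 16.6 CPM in helium and 6.33 to 9.25 in nitrogen ones (0.48, SE 0.22, edgeR adjusted p = 0.289). It rested on 13 to 128 counts a library, and its highest value was in helium 6.6 M replicate 2.

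Depth moves with the coolant, and nitrogen 6.6 M replicate 3 is the 1 nitrogen library as deep as the helium ones. It held 495 CPM of CENPW, 92.5 of CENPQ and 693 of CENPK, above every helium library, and 7.23 of CENPT, below every helium library. For SPC25 it held 612 CPM, inside the helium range of 316 to 634. A fit with a term for depth class depends on that 1 library, and its log2 differences were -0.47 for CENPW, -0.55 for CENPQ and -1.05 for CENPK, and none passed edgeR (adjusted p = 0.423, 0.460 and 0.241).

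**Figure D4:**
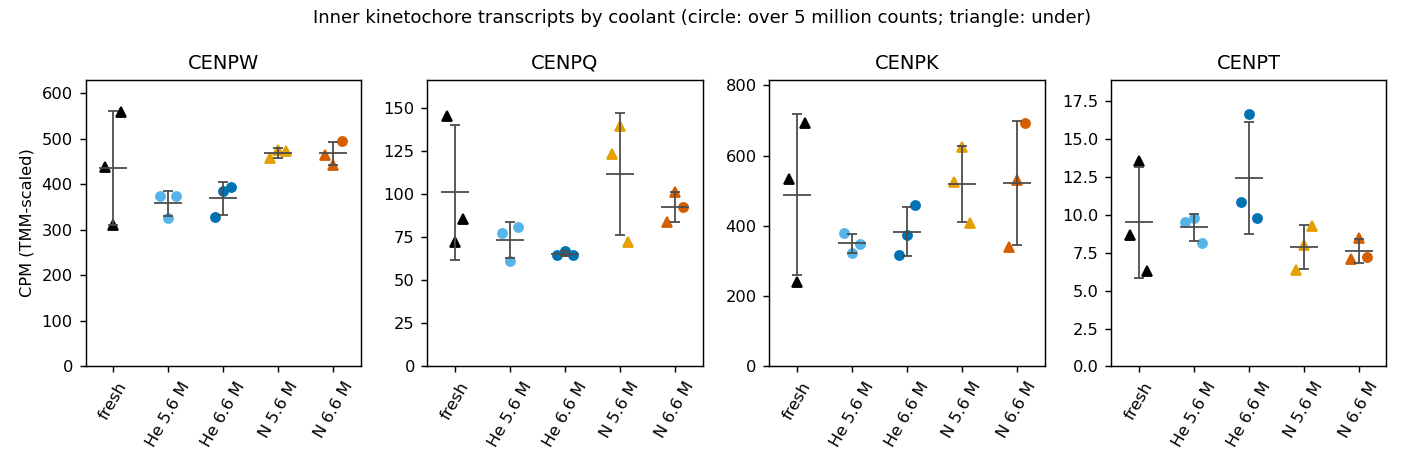
CENPW, CENPQ, CENPK and CENPT in CPM (TMM-scaled) per library, with circles for libraries over 5000000 counts and triangles for the others, and mean ± SD of each group of 3 as bars; each axis starts at 0. CENPW lies at 327 to 395 in all helium and 443 to 495 in all nitrogen libraries, while fresh libraries (310 to 559) span both.

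The concentration of the cryoprotective agent, 6.6 M against 5.6 M over both coolants, gave no gene of the set past edgeR's threshold, and 0% of all genes passed. By edgeR 1 of 34 had an unadjusted p under 0.05 (2.24% of all genes), and DESeq2 called 0. The 95% intervals of 33 of 34 genes lay within 1 log2 unit of 0. The interaction of coolant and concentration likewise gave 0 calls by edgeR and by DESeq2 (0% of all genes), with 1 unadjusted p under 0.05 (2.11%).

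PMF1, a subunit of the MIS12 complex, was the gene behind both unadjusted values. It had 6, 1 and 8 counts (2.53, 0.471 and 4.63 CPM) with nitrogen 5.6 M and 19, 21 and 34 counts (9.62, 8.50 and 4.72 CPM) with nitrogen 6.6 M. The nearest values of the groups, 4.63 and 4.72 CPM, were almost equal. How many of all genes separate between these groups was not counted. In helium it stood at 5.30 to 7.26 CPM at both concentrations. The log2 difference between concentrations was 0.74 (SE 0.32, edgeR adjusted p = 1) and the interaction -1.63 (SE 0.65, edgeR adjusted p = 1). With as few as 1 count in a library these values have little precision, and the interaction was -1.09 without nitrogen 5.6 M replicate 2 (1 count).

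Partners of the kinetochore under other symbols were followed in 5 lists of 63 symbols, of which 50 were in the table and 42 tested. In vitrified against fresh oocytes 1 of 42 rose and 0 fell by edgeR, where 0.509% of all genes passed, with 23 above 0 and 19 below. That gene was BUB3, a checkpoint protein that docks on kinetochores, 1 of 8 tested checkpoint genes. It stood at 248, 350 and 285 CPM in fresh libraries and at 384 to 556 CPM in vitrified ones, which all lay above every fresh library, as they did for 1.32% of all genes. Its log2 fold change was 0.75 (SE 0.15, edgeR adjusted p = 0.0228). The call was lost by edgeR without fresh replicate 1 (0.69, adjusted p = 0.161), without fresh replicate 3 (0.74, adjusted p = 0.0621), with library totals (0.73, adjusted p = 0.0552) and with the depth term (0.67, adjusted p = 0.346). BUB3 also rose with helium 6.6 M, where 0.628% of all genes passed (0.81, edgeR adjusted p = 0.0406), but not with the replicate number as a block (0.83, edgeR adjusted p = 0.118). PPP2CB, a catalytic subunit of the phosphatase that protects centromeric cohesion, fell with helium 6.6 M, from 62.5, 64.1 and 109 CPM in fresh to 40.2, 31.8 and 27.3 (-1.25, SE 0.28, edgeR adjusted p = 0.0443). With the block its adjusted p was 0.0724 by edgeR (-1.22). The other catalytic subunit in the list, the more abundant PPP2CA, averaged 710 ± 196 CPM in fresh and 774 ± 35.5 with helium 6.6 M (0.12, edgeR adjusted p = 0.836). Leaving out 1 library ended the call in 11 of 15 cases for BUB3 with helium 6.6 M and in 11 of 15 for PPP2CB, with edgeR adjusted p up to 0.206 and 0.179. No other tested gene of the lists passed in any of the 8 comparisons. The passenger complex list holds CDCA8, AURKB and BIRC5 of the complex, and also the kinases AURKA and GSG2. AURKB stood at 146, 179 and 156 CPM in fresh replicates 1, 2 and 3 and at 185 to 278 in vitrified libraries. Like BUB3, it lay wholly above fresh, as did 1.32% of all genes (0.44, SE 0.14, edgeR adjusted p = 0.156). None of the 5 tested genes of that list passed. Nor did any of the 12 tested microtubule partners or the 5 tested centromere genes under other symbols. The last list holds APITD1 (CENP-S), a histone-fold partner of CENPT and CENPW, which averaged 53.7 ± 7.58 CPM in helium and 79.7 ± 10.7 in nitrogen libraries (n = 6 each; log2 difference -0.57, SE 0.15, edgeR adjusted p = 0.0793). DESeq2 called it (adjusted p = 0.0201), as did edgeR without fresh replicate 2 (adjusted p = 0.0300). These settings called 269 and 234 genes over the whole table. TRIP13 of the checkpoint list differed the other way, at 173 to 247 CPM in helium and 117 to 166 in nitrogen libraries. Its log2 difference was 0.56 (SE 0.15, edgeR adjusted p = 0.0793), and 0.735% of all genes likewise lay wholly higher with helium. Against fresh, TRIP13 had a log2 fold change of 0.92 with helium 6.6 M (edgeR adjusted p = 0.0530).

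The median coefficient of variation over the 15 libraries was 22.6% for the 34 genes and 26.4% for all genes tested. Fresh replicate 2 was the lowest of its group for 21 of 34 genes, against 34.8% of all genes, while fresh replicate 3 was the highest for 15 (33.9% of all genes) and fresh replicate 1 for 14 (26.0%). In fresh replicate 2 SPC25, CENPU, CENPK, SPDL1 and SKA2 all stood under the other fresh libraries. Nitrogen 6.6 M replicate 1 was the lowest of its group for 23 of 34 (38.2% of all genes) and nitrogen 5.6 M replicate 3 for 20 (37.8%). Without fresh replicate 2 the median log2 fold change of the 34 genes between vitrified and fresh was -0.10, and without fresh replicate 3 it was 0.14, in place of 0.04.

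In helium 6.6 M replicate 2, 14 of 34 genes were at their lowest of the group and 14 at their highest, against 38.6% and 41.2% of all genes, so these counts are near the background. The large corona proteins were low in it, with CENPF at 1300 CPM against 2919 and 2631, CENPE at 418 against 650 and 834, and KNTC1 at 41.1 against 91.7 and 103. CENPM, MIS18A and CENPT were high, at 24.2, 108 and 16.6 CPM, against at most 13.5, 71.5 and 10.8. The same genes were also the highest of their group in fresh replicate 2 (15.5, 91.6 and 13.5 CPM) and nitrogen 5.6 M replicate 3 (16.8, 79.8 and 9.25 CPM). Relative to the mean of its group's other libraries, the difference in log2(CPM + 1) was -1.23 for KNTC1, -1.09 for CENPF and -0.81 for CENPE, whose gene lengths are 6726, 9359 and 14156 bases. It was 0.92 for CENPM and 0.72 for MIS18A, with lengths of 1082 and 1132 bases. Spearman's rho between this difference and gene length was -0.45 over the 34 genes and -0.20 over all 8441, across genes of 1 library, which are not independent replicates. In the other 14 libraries rho over the 34 genes ran from -0.34 to 0.53, and since each library is set against its own group the values of a group depend on each other. The library also had the highest sum of cumulus cell markers (590 CPM, against 321 and 367). The part of gene length and of other cells in these values was not tested.

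**Figure D5:**
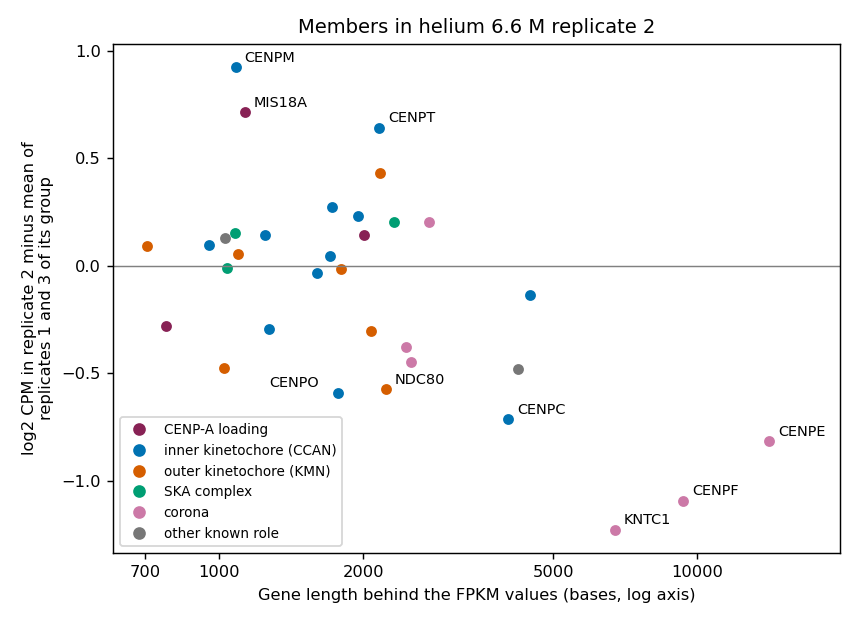
Difference in log2(CPM + 1) of helium 6.6 M replicate 2 from the mean of replicates 1 and 3 of its group, for 33 tested genes, against gene length (bases, log axis), coloured by role. The 3 longest corona genes, KNTC1, CENPF and CENPE, lie at -1.23, -1.09 and -0.81, and CENPM and MIS18A, with lengths of 1082 and 1132 bases, lie at 0.92 and 0.72.

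As a whole, the 37 genes took 1.20% ± 0.0796 (SD, n = 15) of all counts, from 1.08% to 1.34%. The share was 1.15% ± 0.0629 in fresh, 1.26% ± 0.0153 in helium 5.6 M, 1.22% ± 0.0627 in helium 6.6 M, 1.11% ± 0.0277 in nitrogen 5.6 M and 1.27% ± 0.0885 in nitrogen 6.6 M libraries (SD, n = 3 each). The vitrified groups lay on both sides of the fresh mean.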

How the data were processed

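RNA sequencing of 15 bovine oocyte libraries was analysed from 1 deposited table of 24616 Ensembl genes. Per the labels' protocols, cDNA was made with SMARTer chemistry from single cells. The submitters' processing notes name StringTie 1.3.0, HISAT2 2.0.4 and the build UMD3.1 without their roles. The sources used here do not give strand use or the handling of reads with several matches. Counts were deposited by the authors as whole numbers per gene and library without scaling, per the file headers. The deposited FPKM values follow from each count, the gene's length and the library's total, to within 0.1% for 180473 of 180473 values above 0. No sequence was used, and coordinates are those of the table.

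Genes and lists were chosen with earlier results of these data known. In R 4.3.3, edgeR 4.0.16 (filterByExpr, TMM, 1 robust quasi-likelihood fit of 5 groups, limma 3.58.1 loaded) tested 8 contrasts over 8441 genes, with Benjamini-Hochberg adjustment and a threshold of 0.05. Intervals are 95%. The fit was tested on simulated data. Library totals were 1601519 to 8569618 counts, which limits low genes. Alternatives were DESeq2 1.42.0, other scaling, no filter, a depth term, 2-group fits and leaving out each library; for BUB3, PPP2CB, APITD1, CENPT between coolants and PMF1 between concentrations they were added after seeing the data. Values per library are given for genes past the threshold, the 4 largest changes each way between vitrified and fresh, and the 2 most abundant tested genes of each role. Other genes named singly were chosen after their values were seen. The values of 1 tested gene are not reported here, and the counts include it. The block fits, for helium 6.6 M and both nitrogen groups against fresh, took equal replicate numbers as blocks. The labels do not say that a number marks a shared animal or culture. For helium 6.6 M and fresh, libraries with equal numbers deviated together from their group means (r = 0.162, 0.320 and 0.243). Unequal numbers ran from -0.471 to 0.326 there. The highest was between fresh replicate 1 and helium 6.6 M replicate 3, so these r values do not establish a pairing. The nitrogen numbers did not pair (0.122, -0.353 and -0.175 at 5.6 M, -0.14, -0.212 and 0.468 at 6.6 M).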

Additional observations from a re-analysis of the deposited data

Results flagged for a closer look

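CENPW stood on opposite sides of the fresh mean in the 2 coolants. Every helium library (327 to 395 CPM) lay below the fresh mean of 435 CPM and every nitrogen library (443 to 495 CPM) above it. The ratio of the helium mean to the nitrogen mean was 0.777, from 364 ± 29.3 and 468 ± 17.7 CPM (SD, n = 6 each). The tested difference between coolants did not pass (log2 -0.36, edgeR quasi-likelihood test, adjusted p = 0.202). Fresh libraries themselves ranged from 310 to 559 CPM. Over all genes tested, 2.63% lay wholly lower with helium than with nitrogen and 0.735% wholly higher. How many of all genes lay on both sides of the fresh mean in this way was not counted. Depth largely goes with the coolant, and its part in the CENPW values was not tested.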

How the results depend on the processing

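The number of the 34 genes past the threshold was 0 in each comparison and became 1, SPC25, for vitrified against fresh under DESeq2, library totals and no filter on low counts. It also became 1 (SPC25) for nitrogen 5.6 M and nitrogen 6.6 M under DESeq2 and without the filter, and for helium 5.6 M without the filter. Leaving out each library gave 0 to 1 for vitrified against fresh and nitrogen 6.6 M (SPC25, without fresh replicate 1) and for helium 5.6 M (CENPL, without fresh replicate 2), and 0 in the other comparisons. The share of counts was 1.05% without the genes of other known roles. Between vitrified and fresh, the sign of the log2 fold change turned with depth class as a term for CENPU (-0.38) and NUF2 (-0.29), with DESeq2 for MIS18A (0.000101), without the filter for MIS18A (0.028) and SKA1 (0.0101), and with library totals for SKA1 (0.0429). Leaving out single libraries gave signs on both sides for CENPF (-0.0876 to 0.43), CENPJ (-0.0174 to 0.43), CENPQ (-0.46 to 0.13), CENPU (-0.29 to 0.36), CENPW (-0.28 to 0.15), MIS18A (-0.14 to 0.27), NUF2 (-0.10 to 0.35), PMF1 (-0.0156 to 0.81), SKA1 (-0.20 to 0.35) and SKA3 (-0.24 to 0.12). The cause was not tested. Over all genes, 43 passed between vitrified and fresh, 191 with DESeq2, 142 without the filter, 1 with the depth term, 5 without fresh replicate 1 and 230 without fresh replicate 2. With helium 5.6 M these were 40, 244, 160 and 0, and 5 in a 2-group fit. With helium 6.6 M they were 53, 279, 239 and 0, then 33 with library totals, 2 in a 2-group fit and 17 with the replicate block. With nitrogen 5.6 M they were 1, 32, 26 and 2, then 6 with library totals. With nitrogen 6.6 M they were 4, 69, 60 and 1, then 12 with library totals, 1 in a 2-group fit and 0 with the replicate block. Between coolants they were 56, 269, 344 and 13, then 31 with library totals. For concentration and the interaction they were 0, and 3 and 2 without the filter. Leaving out each library gave 1 (without helium 5.6 M replicate 3 or 5) to 431 (without fresh replicate 2) genes with helium 5.6 M and 3 (without helium 6.6 M replicate 2 or fresh replicate 1) to 598 (without fresh replicate 2) with helium 6.6 M. It gave 1 to 3 (without fresh replicate 3) with nitrogen 5.6 M, 1 to 23 (without fresh replicate 3) with nitrogen 6.6 M, and 15 (without helium 5.6 M replicate 4) to 234 (without fresh replicate 2) between coolants, so the shares of all genes called move as much. The replicate block called 0 of the 34 genes at helium 6.6 M and in both nitrogen groups. For helium 5.6 M, which shares only the number 3 with fresh, no paired analysis was possible. Tested genes under about 10 CPM (SPC24, PMF1, OIP5, CENPN and CENPT) rest on few counts in the shallower libraries.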
